A study of Mus musculus with 20 samples.

Results

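The adult haemoglobin genes Hba-a1, Hba-a2, Hbb-bs and Hbb-bt and the red cell gene Alas2 were followed in hippocampal RNA of 20 mice. These 5 genes were chosen by name, as globin and red cell transcripts that show how much blood RNA a piece of brain tissue may carry. All 5 were found among the 49671 genes of the count tables, and all 5 were among the 18427 genes abundant enough to be tested. The 4 globins varied 38.9-fold between the 20 hippocampi when summed, and 5.33-fold without ICI replicates 1 and 3, which lay far below the other 18. All 5 genes were on average lowest in the ICI group, but 0 of 5 passed the test in any comparison of groups.

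Bulk RNA sequencing was done on 1 fresh frozen hippocampus from each of 20 adult male wild-type mice aged 10 to 12 weeks, 5 mice per group. The study concerns brain inflammation and degeneration after immune checkpoint inhibition, in which antibodies release brakes on T cells. The control group had no tumour and received isotype-matched antibody into the peritoneum. The ICI group had no tumour and received anti-CTLA-4 at 1 mg per dose, 3 times a week, and anti-PD-1 at 200 µg per dose, 2 times a week, by the same route. The melanoma group carried D4M-3A.UV2, a syngeneic mouse melanoma line injected into the skin on both sides at 500000 cells, and received isotype-matched antibody after 1 week of engraftment. The melanoma plus ICI group carried the same tumours and received the same antibody combination, for 3 weeks as the labels put it. Every brain was taken 72 hours after the last injection. Wild-type here is given with no strain, and the tumours grew in the skin, so no tumour cells were placed in the brain. Whether the vessels were flushed with buffer before the brain was removed is not given in the sources used here.

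Haemoglobin is a tetramer of alpha and beta globin chains, each holding a haem group that binds oxygen. Mouse alpha globin comes from the neighbouring genes Hba-a1 and Hba-a2, and adult beta globin from Hbb-bs and Hbb-bt, names used for the beta genes of mice with the single haplotype. Alas2 encodes the red cell form of 5-aminolevulinate synthase, which starts haem synthesis. Mouse red cells lose their nucleus, but young ones, the reticulocytes, still hold globin RNA, so blood left in the vessels brings these transcripts into brain samples. Globin transcripts have also been described in neurons and glia.

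The deposited coordinates match GRCm38. Hba-a1 lies on chromosome 11 from 32283511 to 32284465 on the plus strand, with 812 exonic bases. Hba-a2 lies 12023 bases further on the same strand, from 32296489 to 32297298, with 667 exonic bases. Hbb-bs lies on chromosome 7 from 103826534 to 103828096 on the minus strand, with 768 exonic bases. Hbb-bt follows it on that strand, from 103812524 to 103813996, with 703 exonic bases and 12537 bases between them. Alas2 lies on chromosome X from 150547375 to 150570638 on the plus strand, with 2403 exonic bases. Its span overlaps Apex2, a DNA repair gene on the other strand.

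The members of each globin pair are nearly the same in sequence, which limits how far reads can be told apart. The coding sequences of Hba-a1 and Hba-a2 in GENCODE M21 are 429 bases long and differ at 1 base, and those of Hbb-bs and Hbb-bt are 444 bases long and also differ at 1 base. The windows of 60 coding bases around that base are shown 5′ to 3′, with the differing base in capitals.
Hba-a1: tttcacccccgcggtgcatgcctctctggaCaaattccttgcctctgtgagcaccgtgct
Hba-a2: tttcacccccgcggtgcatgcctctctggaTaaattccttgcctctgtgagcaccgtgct
Hbb-bs: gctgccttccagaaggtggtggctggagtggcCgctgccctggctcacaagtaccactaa
Hbb-bt: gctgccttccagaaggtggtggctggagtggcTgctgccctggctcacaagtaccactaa
Over the full transcripts, 56.5% of all runs of 100 bases in Hba-a1 also occur in Hba-a2, and 74.5% of those in Hba-a2 also occur in Hba-a1. For Hbb-bs the share found in Hbb-bt was 62.6%, and for Hbb-bt the share found in Hbb-bs was 54.8%. Alas2 shared 0% of such runs with the other 4 genes. How the authors' counting treated reads that fit both genes of a pair is not given in the sources used here, so the split within a pair is uncertain, and the sum of a pair is the firmer value.

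The promoters are shown as background, and their part in the levels across hippocampi was not tested. Each is the 250 bases before the RefSeq start on GRCm38.p6, 5′ to 3′ on the gene's strand, with matches on either strand in capitals. The motifs searched were the CCAAT box, the CACCC box, the GATA motif with the letters GATAA and the TATA box with the letters TATAA. They were chosen as the textbook elements of globin promoters, so finding them there tests nothing, and a match is no evidence of a bound factor. The Hba-a1 promoter lies at chr11:32283422-32283671, the Hbb-bs promoter at chr7:103827929-103828178 and the Alas2 promoter at chrX:150547167-150547416.
Hba-a1: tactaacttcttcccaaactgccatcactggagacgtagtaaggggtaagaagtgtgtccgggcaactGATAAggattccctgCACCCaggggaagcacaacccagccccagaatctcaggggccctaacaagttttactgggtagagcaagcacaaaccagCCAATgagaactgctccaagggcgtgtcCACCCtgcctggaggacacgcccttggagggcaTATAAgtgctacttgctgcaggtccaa
Hbb-bs: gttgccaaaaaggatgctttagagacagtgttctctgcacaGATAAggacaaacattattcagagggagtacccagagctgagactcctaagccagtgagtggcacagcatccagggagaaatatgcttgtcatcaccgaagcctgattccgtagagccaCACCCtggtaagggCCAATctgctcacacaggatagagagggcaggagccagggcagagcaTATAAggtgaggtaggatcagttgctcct
Alas2: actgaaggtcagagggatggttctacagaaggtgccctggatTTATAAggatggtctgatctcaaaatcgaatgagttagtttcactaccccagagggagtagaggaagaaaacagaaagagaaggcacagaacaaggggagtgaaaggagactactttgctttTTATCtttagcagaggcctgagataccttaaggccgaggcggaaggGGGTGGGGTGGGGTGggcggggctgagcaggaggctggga
Hba-a1 and Hbb-bs each held all 4 motifs, as did Hba-a2 and Hbb-bt, while the Alas2 window held matches to the CACCC box, the GATA motif and the TATA box. Of 32851 mouse promoter windows of the same length, 0.968% held all 4 motifs. Singly the motifs are common, with the CCAAT box in 33.8%, the CACCC box in 52%, the GATA motif in 22.6% and the TATA box in 22.8% of the windows. In the Alas2 window 2 matches to the TATA box, 1 on each strand, overlap between bases -208 and -203 from the start. The TATA match lies from -27 to -23 in Hba-a1 and from -29 to -25 in Hbb-bs, so those of Alas2 are not at the same place. The Hba-a1 and Hba-a2 windows share an unbroken run of 247 bases, against 14 bases for Hbb-bs and Hbb-bt.

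The 20 libraries held between 21990624 and 25735149 counts. Transcripts of hippocampal neurons, Prox1, Zbtb20 and Neurod6, were present in all 20, and Prox1 ran from 21.9 to 187 CPM. CPM stands for counts per 1000000 of the scaled library size. The first principal component set control replicate 4 and replicate 1 of melanoma plus ICI apart, and these had the highest shares of mitochondrial counts, 5.10% and 4.28% against 3.08% to 3.79% in the other 18. ICI replicates 1 and 3 stood apart in the globins and had mitochondrial shares of 3.16% and 3.12%. Comparisons of the members between groups are given with and without the libraries that move them.

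Beta globin Hbb-bs was the most abundant of the 5, with 4163 counts over all 20 libraries and 49.3% of the counts of the 4 globins. In control replicates 1 to 5 it stood at 8.90, 5.19, 8.70, 19.5 and 8.82 CPM. ICI replicates 1 to 5 had 0.729, 6.93, 0.762, 8.24 and 5.91 CPM, from 17, 157, 16, 200 and 133 counts. The melanoma libraries had 5.05, 7.77, 4.90, 16.4 and 21.6 CPM, and those of melanoma plus ICI 19.2, 7.21, 7.39, 4.11 and 9.92 CPM. ICI replicates 1 and 3 were the lowest of the 20, the highest 4 were control replicate 4, melanoma replicates 4 and 5 and melanoma plus ICI replicate 1, and the ranges of all groups overlapped. Hbb-bs averaged 11.1 ± 7.50 CPM in melanoma, 10.2 ± 5.42 in control, 9.56 ± 5.76 in melanoma plus ICI and 4.51 ± 3.54 in ICI (SD, n = 5). In that order, no gap between neighbouring groups was larger than the larger of their SDs.

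Alpha globin Hba-a1 followed with 2692 counts and 31.9% of the globin counts. It had 147, 79, 138, 346 and 171 counts in the control group and 5, 110, 9, 132 and 73 in the ICI group. In the melanoma group it had 67, 111, 70, 318 and 264 counts, and in the melanoma plus ICI group 255, 91, 99, 72 and 135. The same 2 ICI libraries were lowest, and the same 4 libraries highest. Hba-a1 averaged 7.68 ± 4.83 CPM in control, 7.11 ± 5.01 in melanoma, 5.37 ± 3.08 in melanoma plus ICI and 2.84 ± 2.43 in ICI (SD, n = 5), with overlapping ranges and no gap between neighbours beyond the larger SD.

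The second genes of the pairs were counted less often, Hba-a2 with 768 and Hbb-bt with 815 counts in all. Hba-a2 had 30, 21, 34, 110 and 40 counts in the 5 control libraries and 3, 32, 6, 47 and 23 in those of ICI. Melanoma libraries gave it 15, 44, 21, 64 and 71 counts, and melanoma plus ICI libraries 99, 28, 27, 18 and 35. Its lowest values were in ICI replicates 1 and 3. Hbb-bt had 34, 29, 37, 97 and 45 counts in the control libraries and 2, 37, 3, 40 and 33 in those of ICI. Melanoma libraries gave it 25, 33, 33, 48 and 88 counts, and melanoma plus ICI libraries 105, 25, 41, 20 and 40. Both genes were lowest in ICI replicates 1 and 3 and, in CPM, highest in control replicate 4. Hba-a2 averaged 2.07 ± 1.71 CPM in control and 0.957 ± 0.759 CPM in ICI, and Hbb-bt 2.11 ± 1.34 and 0.995 ± 0.808 CPM (SD, n = 5). Neither gene had a gap between neighbouring groups beyond the larger SD, and their ranges overlapped between all groups.

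Alas2, the haem synthesis enzyme of red cell precursors, was rare, with 494 counts over all libraries. It had 20, 10, 17, 36 and 35 counts in control and 8, 18, 6, 23 and 14 in ICI. In melanoma it had 20, 23, 18, 40 and 54 counts, and in melanoma plus ICI 43, 37, 30, 17 and 25. ICI replicates 3 and 1 were again lowest, with control replicate 2 next, and melanoma replicate 5 was highest. Alas2 averaged 1.33 ± 0.676 CPM in melanoma, 1.24 ± 0.416 in melanoma plus ICI, 1.02 ± 0.513 in control and 0.599 ± 0.284 in ICI (SD, n = 5), again with overlapping ranges and no gap beyond the larger SD. Apex2, which overlaps its span, had 2650 counts. Strand use in the counting is not given in the sources used here, so reads from Apex2 and Alas2 cannot be told apart where they overlap.

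**Figure D1:**
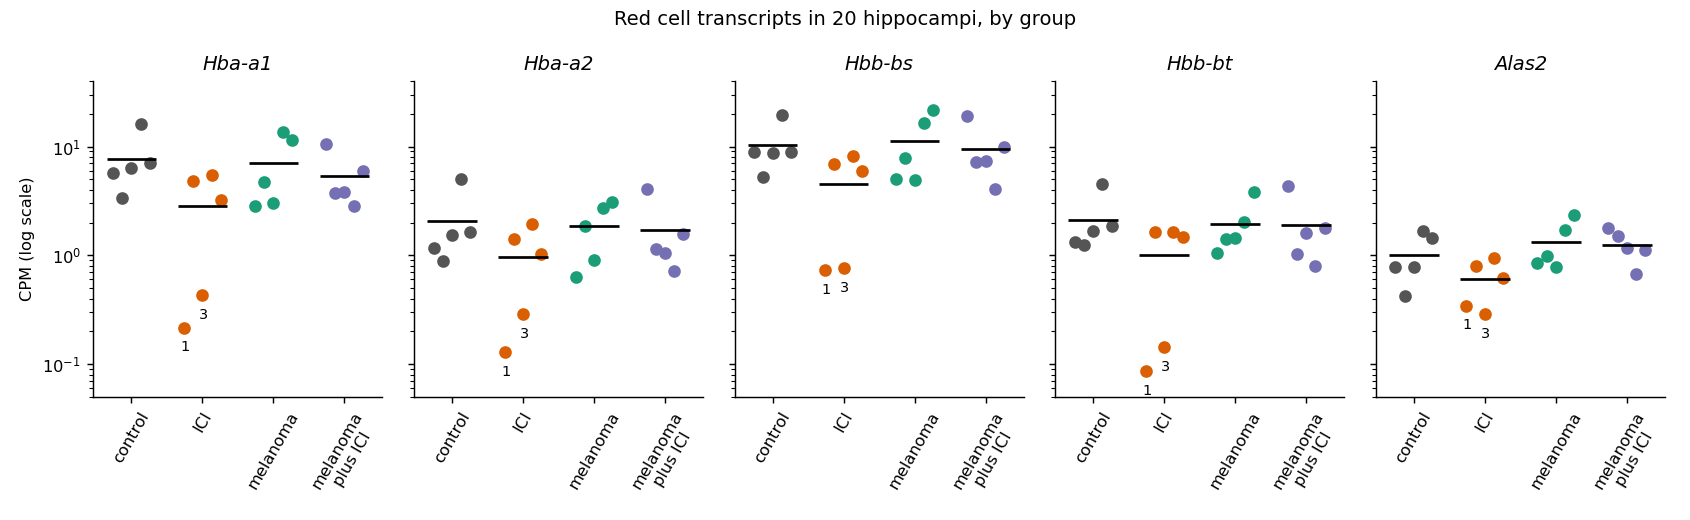
CPM on a log scale (vertical axis) of the 5 genes in the 4 groups, 1 point per library and a black line at each group's arithmetic mean; the digits mark ICI replicates 1 and 3. Both marked libraries lie below the other 18 in every panel, and all groups overlap.

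On a scale of CPM per kilobase of exon, which allows genes to be compared, Hbb-bs averaged 11.5 over the 20 libraries, Hba-a1 7.08, Hbb-bt 2.47, Hba-a2 2.46 and Alas2 0.436. The ratio of alpha to beta globin counts per kilobase lay between 0.427 and 0.858, with a mean of 0.663 and a coefficient of variation of 17.2%, while the summed globin CPM had one of 67.7%. Over the other 18 libraries alone, leaving out ICI replicates 1 and 3, these were 15.1% and 57.5%. Control libraries had a ratio of 0.736 ± 0.0898, ICI libraries 0.648 ± 0.151, melanoma libraries 0.656 ± 0.128 and melanoma plus ICI libraries 0.611 ± 0.0654 (SD, n = 5). These group means lay within the spread of the libraries. In the lowest libraries Alas2 was less reduced than the globins. Its counts equalled 29.6% of the globin counts in ICI replicate 1 and 17.6% in ICI replicate 3, against 3.69% to 11.5% in the other 18. Apex2 stood at 4.63 and 4.24 CPM in these libraries, against 4.65 to 7.19 CPM in the others, and its part in the Alas2 values was not tested.

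The 2 low libraries carried some globin RNA, but little. The summed globins stood at 1.2 CPM in ICI replicate 1 and 1.62 CPM in ICI replicate 3, from 27 and 34 counts. The other 18 libraries lay between 8.45 and 45.0 CPM with a median of 16.5, which is 14.2 times and 10.2 times the values of the 2 low ones. The other 3 ICI libraries, from 11.6 to 17.3 CPM, lay within the range of the other groups. For Hbb-bs the 95% exact binomial interval of the value was 0.425 to 1.17 CPM in ICI replicate 1 and 0.436 to 1.24 CPM in ICI replicate 3, which covers counting error only. The lowest of the other libraries was at 4.11 CPM, so the gap was larger than counting error.

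The gap was compared with that of other genes. Among 15515 genes with a mean of at least 1 CPM, 174 had both ICI replicate 1 and ICI replicate 3 as their lowest libraries. Dividing the lowest of the other 18 libraries by the higher of these 2 gave 6.57 for Hba-a1, 5.53 for Hbb-bt, 5.39 for Hbb-bs and 2.21 for Hba-a2. These were the 4 largest ratios of the 174 genes. Next came Fbxo36 at 1.47 and Apod, a lipid-binding apolipoprotein, at 1.38, and Alas2 was 9th at 1.24. As the 2 libraries were picked for their low globins, these ratios describe them and test nothing.

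Across all 20 libraries the 5 genes moved together. Hbb-bs and Hba-a1 gave Pearson's r = 0.985 and Spearman's rho = 0.965 on log2 CPM. The permutation p was 1e-05 for both, the smallest that 100000 resamples can give, and the adjusted p over 10 pairs was 1.11e-05 for r and 1.67e-05 for rho. Over all 10 pairs r lay between 0.824 and 0.985 and rho between 0.740 and 0.965, and all 10 passed the test. The lowest r was that of Hbb-bt with Alas2. The relation did not rest on the 2 low ICI libraries, which were also the 2 farthest from the median of Hbb-bs. Without them r of Hbb-bs was 0.960 with Hba-a1, 0.938 with Hba-a2, 0.908 with Hbb-bt and 0.835 with Alas2. Reads that fit both genes of a pair can raise r within that pair, but no run of 100 bases of Hba-a1 occurs in Hbb-bs.

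**Figure D2:**
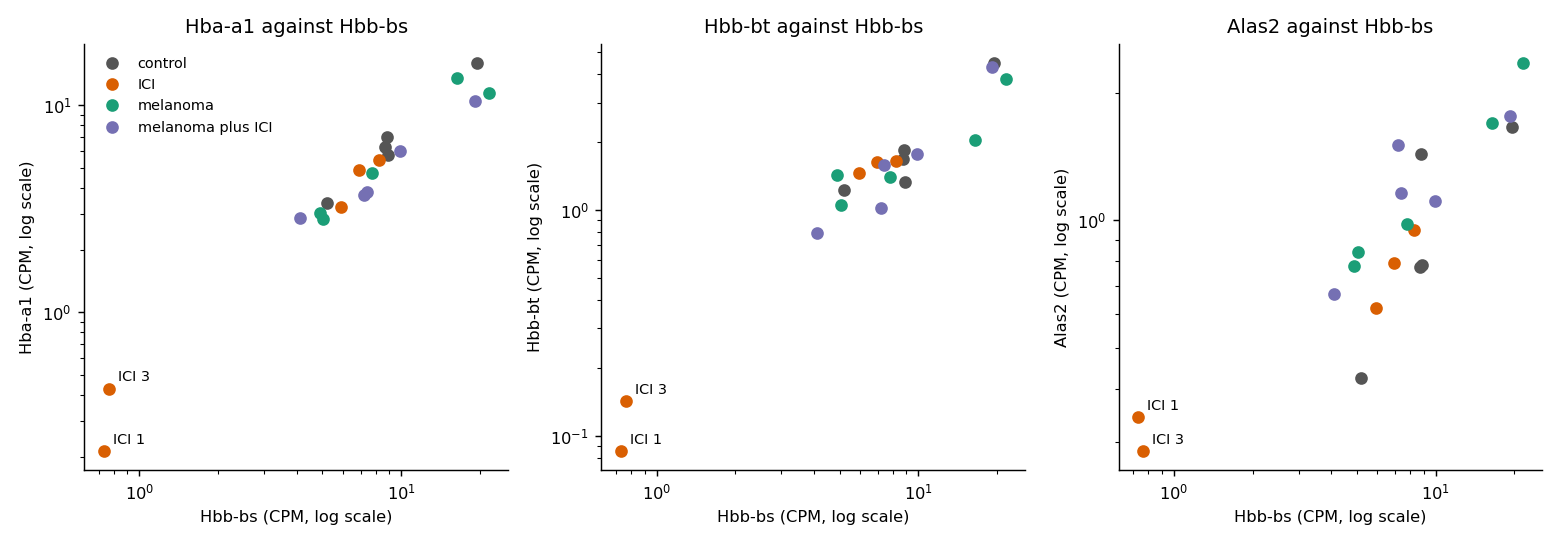
Hba-a1, Hbb-bt and Alas2 (vertical axes) against Hbb-bs (horizontal axes), all in CPM on log scales, 1 point per library coloured by group. ICI replicates 1 and 3 sit at the lower left of each panel, the other 18 libraries form a rising line without them, and Alas2 spreads most around it.

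Their spread between mice of 1 group was wide. The biological coefficient of variation that edgeR estimated was 0.703 for Hba-a1, higher than in 98.5% of the 18427 tested genes. It was 0.665 for Hba-a2, 0.641 for Hbb-bs, 0.653 for Hbb-bt and 0.403 for Alas2, the last still higher than in 90.1% of tested genes. Leaving out ICI replicates 1 and 3, it was 0.518 for Hba-a1, 0.572 for Hba-a2, 0.488 for Hbb-bs, 0.487 for Hbb-bt and 0.382 for Alas2, which was still higher than in 94.7%, 96.4%, 93.6%, 93.5% and 86.8% of the 18948 genes then tested. This spread sets the width of the intervals in every comparison of groups.

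The comparison of the ICI group with control asks what checkpoint antibodies do in the hippocampus without a tumour. All 5 genes were fitted lower in ICI, as were 52% of all tested genes. In edgeR's quasi-likelihood test with Benjamini-Hochberg adjustment, the log2 fold change of Hba-a1 was -1.43 (SE 0.65, adjusted p = 0.766). It was -1.17 for Hbb-bs (SE 0.60), -1.09 for Hba-a2 (SE 0.64), -1.07 for Hbb-bt (SE 0.62) and -0.75 for Alas2 (SE 0.42), each with the same adjusted p. No member passed at the adjusted threshold, at which 0% of all genes passed, and DESeq2 and limma voom called 0 of the 5 as well. Without adjustment, 1 of 5, Hba-a1, was below 0.05 in edgeR, against 5.23% of all tested genes, 3.15% being lower in ICI. ICI replicates 1 and 3 made up a large part of these differences. Without both, edgeR gave -0.77 for Hba-a1, -0.55 for Hbb-bs, -0.50 for Hba-a2, -0.42 for Hbb-bt and -0.37 for Alas2, and the 95% interval of Hbb-bs ran from -1.67 to 0.58. Control replicate 4 also moved them, and without that library alone the values were -0.98 for Hba-a1, -0.81 for Hbb-bs, -0.45 for Hba-a2, -0.61 for Hbb-bt and -0.51 for Alas2. Without ICI replicate 4 they were further from 0, at -1.82, -1.52, -1.53, -1.34 and -0.98 in the same order of genes, and 0 of 5 passed. In bulk tissue, fewer red cells and less RNA per red cell cannot be told apart, nor can blood in vessels and globin RNA of brain cells.

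The comparison of melanoma plus ICI with ICI asks what the tumour adds under treatment, and it uses the same ICI libraries. All 5 genes were fitted higher with the tumour, as were 55% of all tested genes. The log2 fold changes were 1.08 for Hbb-bs (SE 0.60), 0.91 for Hba-a1 (SE 0.65), 0.82 for Hba-a2 (SE 0.64), 0.92 for Hbb-bt (SE 0.62) and 1.04 for Alas2 (SE 0.41). No member passed, with edgeR adjusted p between 0.563 and 0.673, and 0% of all genes passed. Without adjustment, 1 of 5, Alas2, was below 0.05, against 8.63% of all tested genes, 4.12% being higher with the tumour. Without ICI replicates 1 and 3 the values were 0.45, 0.25, 0.22, 0.26 and 0.65 in the same order of genes. Without control replicate 4 and melanoma plus ICI replicate 1 they were 0.66, 0.52, 0.21, 0.37 and 0.88.

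In melanoma against control the members' fitted values lay on both sides of 0, and 0 of 5 passed, where 0% of all genes passed. Without adjustment 0 of 5 were below 0.05, against 5.11% of all genes. The edgeR log2 fold change was 0.13 for Hbb-bs (95% interval -1.09 to 1.34), -0.11 for Hba-a1, -0.16 for Hba-a2, -0.11 for Hbb-bt and 0.39 for Alas2. Leaving out control replicate 4 alone gave 0.49 for Hbb-bs and 0.34 for Hba-a1, and leaving out melanoma replicate 5 alone gave -0.27 for Hbb-bs. The interval of Hbb-bs holds changes of 1 log2 unit in either direction.

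In melanoma plus ICI against control, the 5 log2 fold changes lay between -0.51 for Hba-a1 and 0.29 for Alas2, with Hbb-bs at -0.10 (95% interval -1.32 to 1.12). There were 0 of 5 members below an unadjusted p of 0.05, against 2.38% of all genes, and 0 of 5 passed after adjustment, against 0% of all genes. Leaving out control replicate 4 gave 0.27 for Hbb-bs, and leaving out melanoma plus ICI replicate 1 gave -0.53. With melanoma as the baseline, the comparison with melanoma plus ICI asks what the antibodies do in tumour-bearing mice. All 5 genes were fitted lower, as were 46.5% of all tested genes, and the values lay between -0.40 for Hba-a1 and -0.04 for Hbb-bt, and Hbb-bs was at -0.22 (95% interval -1.44 to 1.00). Again 0 of 5 members were below an unadjusted p of 0.05, against 5.50% of all genes, and 0 of 5 passed, against 0%. Without melanoma plus ICI replicate 1 Hbb-bs was at -0.64. Without melanoma replicate 5 the direction turned for 4 of 5, to 0.15 for Hba-a2, 0.16 for Hbb-bs, 0.36 for Hbb-bt and 0.21 for Alas2. With the replicate number as a block the same 4 turned as well, to between 0.06 for Alas2 and 0.12 for Hbb-bt.

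The interaction, the antibody effect with a tumour minus that without, was 1.02 for Hba-a1 (SE 0.91), 0.98 for Hba-a2 (SE 0.88), 0.95 for Hbb-bs (SE 0.83), 1.03 for Hbb-bt (SE 0.85) and 0.65 for Alas2 (SE 0.57). All 5 were above 0, as were 52.8% of all tested genes. None of the 5 passed in edgeR (adjusted p from 0.590 to 0.620), where 0% of all genes passed, and 0 of 5 were below 0.05 without adjustment, against 10.3% of all genes. Without ICI replicates 1 and 3 the values fell to between 0.28 for Alas2 and 0.39 for Hba-a2. Leaving out control replicate 4 alone gave 0.58 for Hba-a1 and 0.34 for Hba-a2, and leaving out melanoma plus ICI replicate 1 alone gave 0.54 for Hbb-bs and 0.49 for Hbb-bt. Without both of these libraries Hba-a2 turned to -0.27, and the other 4 lay between 0.02 for Hbb-bt and 0.26 for Alas2.

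**Figure D3:**
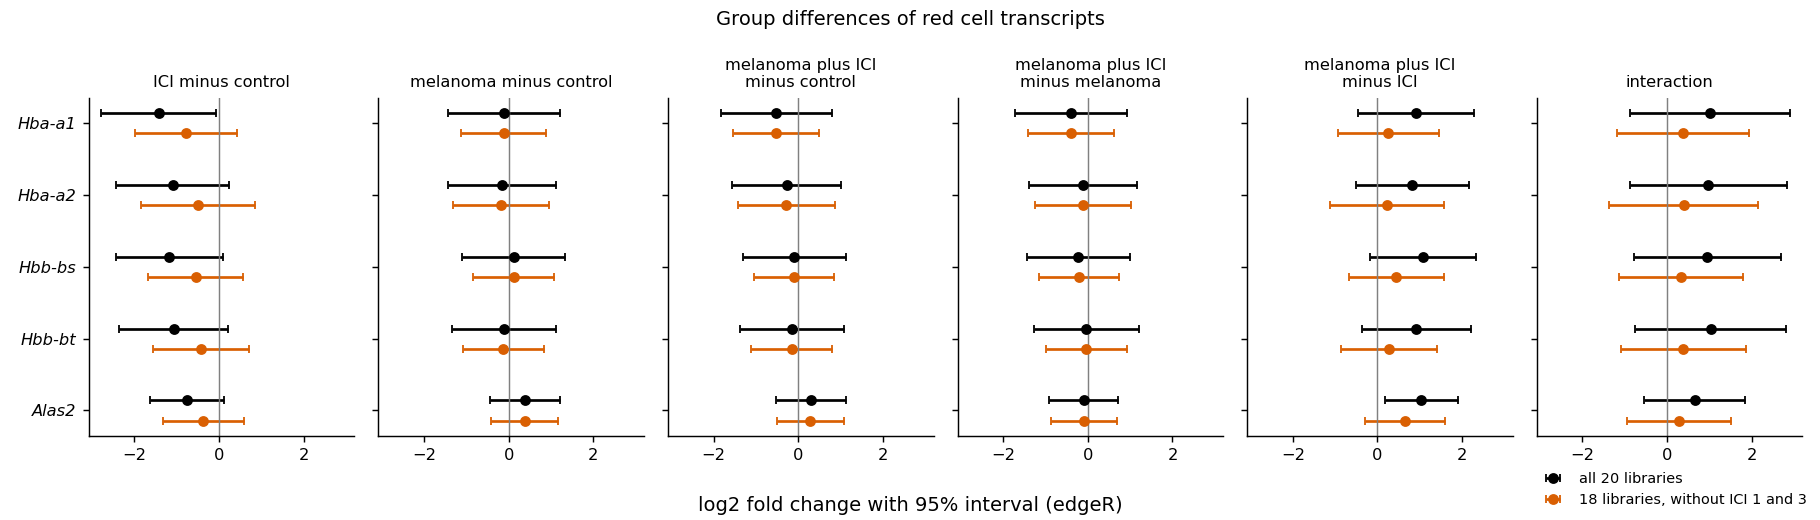
Log2 fold changes (horizontal axis) of the 5 genes in the 6 comparisons, as points with 95% intervals derived from the edgeR test. Black is for all 20 libraries and orange for the 18 without ICI replicates 1 and 3. In the first comparison and in those of melanoma plus ICI with ICI and of the interaction, the orange points lie nearer to 0; the other 3 hardly move.

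The other globins of the alpha and beta clusters were absent or rare. The embryonic genes Hba-x, Hbb-bh1 and Hbb-bh2 had 0 counts in all 20 libraries, and embryonic Hbb-y had 2. The theta globins Hbq1a and Hbq1b had 222 and 215 counts. Hbq1a stood at 0.472 CPM in ICI replicate 1 and 0.286 CPM in ICI replicate 3, around its mean of 0.468 CPM. Cytoglobin (Cygb), an oxygen-binding protein of many tissues, averaged 62.0 CPM, and neuroglobin (Ngb), that of neurons, 5.54 CPM. Cygb was at 61.9 and 80.7 CPM in the 2 low libraries, the second its highest value of all 20.

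Of the 24 listed genes of red cell membrane and enzymes, 23 were in the tables and 13 were tested, and Ahsp, the chaperone of alpha globin, was not analysed here. Those closest to the red cell were near 0, with 46 counts over 20 libraries for Slc4a1, the anion exchanger band 3, and 14 for Epb42, protein 4.2. The erythroid transcription factor Gata1 had 1 count and Klf1 110. The abundant ones are also expressed in brain, such as Slc25a37, a mitochondrial iron carrier, at 35.9 CPM. Slc25a37 stood at 32.1 and 36.5 CPM in ICI replicates 1 and 3. The whole list summed to 1398 and 1559 CPM in these, the second the highest of 20, against 1174 to 1446 CPM in the other 18. In ICI against control 10 of the 13 tested genes were fitted lower, beside 52% of all genes, and the median was -0.04. None of the 13 passed in edgeR, and 1, Gypc, the red cell and endothelial glycophorin C, was below 0.05 without adjustment, beside 5.23% of all genes. Its log2 fold change there was -0.55 (SE 0.19, edgeR adjusted p = 0.766). Gypc was higher and below 0.05 in melanoma plus ICI against melanoma, beside 5.50% of all genes, where all 5 members were fitted lower. In melanoma plus ICI against ICI Gypc, Sptb and Ube2l6 were below 0.05, 2 higher and 1 lower, beside 8.63% of all genes. In the interaction Gypc was above 0 and below 0.05, beside 10.3%. Of the 4 tested genes among the 8 erythroid regulators, Tal1, Zfpm1, Epor and Tfrc, 0 passed and 0 were below 0.05 without adjustment in ICI against control. Their median there was 0.02. The 8 summed to 129 CPM in ICI replicate 1 and 151 CPM in ICI replicate 3, against 97.9 to 145 CPM in the other 18 libraries.

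All 8 listed enzymes of haem synthesis other than Alas2 were tested and 0 passed. In ICI against control 6 of 8 were fitted lower, beside 52% of all genes, and their median was -0.08 beside -0.01 over all tested genes. Alas1, the form of the first enzyme used in other tissues, averaged 54.2 CPM, with a difference of -0.04 (SE 0.08). Fech, ferrochelatase, which inserts the iron, averaged 52.7 CPM, with a difference of 0.00 (SE 0.06). Of 12 listed genes that clear haem and haemoglobin, 11 were tested and 0 passed, with 8 of 11 fitted lower in ICI, beside 52% of all genes, and a median of -0.15. Hmox1, haem oxygenase 1, averaged 4.24 CPM in control and 4.43 CPM in ICI. Slc40a1, the iron exporter ferroportin, was the 1 gene of 11 below 0.05 without adjustment, beside 5.23% of all genes, at -0.24 (SE 0.11, edgeR adjusted p = 0.766). Slc40a1 was lower and below 0.05 in melanoma against control too, where Cd163 was higher and below 0.05, beside 5.11% of all genes. The same held for Slc40a1 in melanoma plus ICI against control, beside 2.38%. In DESeq2 Slc40a1 was at -0.30 in melanoma, -0.25 in ICI and -0.25 in melanoma plus ICI, each against control.

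Markers of other blood cells are given by their summed level. None of 11 neutrophil genes was abundant enough to be tested, and their summed level lay between 0.476 and 2.18 CPM, lowest in ICI replicate 3 and 6th lowest in ICI replicate 1. Platelet genes summed to 12.3 CPM in ICI replicate 1 and 10.8 in ICI replicate 3, against 10.9 to 19.2 in the other 18. Monocyte genes summed to 21.2 and 20.3 CPM, against 19.9 to 33.9. Of the 7 monocyte genes 3 were tested in ICI against control, 1 fitted higher and 2 lower, with a median of -0.04. Among them Lyz2, chosen after its values were seen, lysozyme of myeloid cells, averaged 6.38 ± 0.431 CPM in control and 3.71 ± 1.2 CPM in ICI, and 5.31 ± 1.07 CPM and 7.41 ± 1.26 CPM in the tumour groups without and with the antibodies (SD, n = 5). Its difference between ICI and control was -0.78 (SE 0.18, edgeR adjusted p = 0.766). T cell genes summed to 2.32 CPM in ICI replicate 1 and 1.19 in ICI replicate 3, against 1.23 to 4.07, and B and plasma cell genes to 4.98 and 13.4 CPM, against 6.11 to 26.8. In ICI against control 4 of 5 tested platelet, 3 of 3 B and plasma cell and 2 of 2 T cell genes were fitted lower, beside 52% of all genes. In melanoma plus ICI against ICI 5 of 5, 3 of 3 and 2 of 2 were fitted higher, beside 55%. Of them Pf4 and Cd79a were below 0.05 without adjustment, beside 8.63%. In melanoma plus ICI against melanoma, where all 5 members were fitted lower, 4 of 5, 2 of 3 and 2 of 2 were fitted higher, beside 53.5%. In edgeR no gene of these lists passed in any comparison. DESeq2 called Lyz2 in melanoma plus ICI against ICI (log2 fold change 0.99, SE 0.19, DESeq2 adjusted p = 0.00198, edgeR adjusted p = 0.318) and in the interaction, where limma voom called it too. The other tested monocyte genes were Vcan and Itgal, and Vcan lay opposite to Lyz2. In the interaction Vcan was at -0.74 (SE 0.28, edgeR adjusted p = 0.484) and Lyz2 at 1.26 (SE 0.26, edgeR adjusted p = 0.253). Both were below 0.05 without adjustment, beside 10.3% of all genes, and the list's median was 0.08. Both were also below 0.05 in opposite directions in melanoma plus ICI against melanoma, beside 5.50% of all genes. Without ICI replicates 1 and 3, Lyz2 was at -0.58 in ICI against control in edgeR, and the monocyte median was 0.37.

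Genes of the vessels and membranes that hold the blood were also fitted lower in the ICI group. All 11 endothelial genes were fitted lower in ICI than in control, with a median of -0.26, where 52% of all genes were fitted lower and the median was -0.01. Of the 11, 4 were below 0.05 without adjustment and 0 passed, beside 5.23% of all genes below 0.05, 3.15% being lower. Their sum was 291 CPM in ICI replicate 1 and 269 CPM in ICI replicate 3, the third lowest and the lowest of 20, against 284 to 481 CPM in the other 18. Of 10 mural cell genes, 8 were fitted lower, with a median of -0.28, and 3 of 10, Rgs5, Acta2 and Vtn, were below 0.05 without adjustment, and the 2 low libraries ranked 9th and lowest. The 9 meningeal genes were all fitted lower, with a median of -0.50 and 1 of 9, Igf2, below 0.05 without adjustment, and summed to 150 and 73.7 CPM in the low libraries, against 87.5 to 463. The 9 choroid plexus genes were all fitted lower as well, with a median of -1.23, 0 of 9 below 0.05 and sums of 22.4 and 349.6 CPM, against 35.0 to 6621. In the 2 low libraries these sums lay inside or near the range of the others. Those of the globins lay far below it, but the libraries were picked for that, so the contrast tests nothing. The choroid plexus sum of ICI replicate 1, 22.4 CPM, also lay far below the median of 1602 CPM of the other 18. Without ICI replicates 1 and 3 the counts fitted lower were the same in these 4 lists, and the medians were -0.23 for endothelial, -0.24 for mural, -0.40 for meningeal and -0.77 for choroid plexus genes.

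The same lists were followed in the other comparisons. In melanoma plus ICI against ICI, where the globins were fitted higher, all 11 endothelial, 9 of 10 mural, all 9 meningeal and all 9 choroid plexus genes were fitted higher, beside 55% of all genes. Their medians were 0.29, 0.25, 0.84 and 1.34 in that order, and 5, 4, 6 and 0 of them were below 0.05 without adjustment, beside 8.63% of all genes. In the interaction 9 of 11 endothelial, 8 of 10 mural, 9 of 9 meningeal and 9 of 9 choroid plexus genes were above 0, beside 52.8% of all genes, and 4, 3, 6 and 3 were below 0.05, beside 10.3%. In melanoma against control, where the globins lay on both sides of 0, 6 of 11 endothelial, 8 of 10 mural, 8 of 9 meningeal and 9 of 9 choroid plexus genes were fitted lower, beside 52% of all genes. The choroid plexus median there was -1.43 and the meningeal one -0.32. Cldn5, Pecam1 and Rgs5 were the genes of these lists below 0.05 without adjustment, beside 5.11% of all genes. In melanoma plus ICI against melanoma, where all 5 members were fitted lower, the mural, meningeal and choroid plexus lists lay the other way. The endothelial count was near the share of all genes. There 6 of 11 endothelial, 9 of 10 mural, 9 of 9 meningeal and 9 of 9 choroid plexus genes were fitted higher, beside 53.5% of all genes, with medians of 0.10, 0.09, 0.68 and 1.38, and 1, 2, 1 and 0 were below 0.05 without adjustment, beside 5.50%. In melanoma plus ICI against control, where 4 of 5 members were fitted lower, 7 of 11 endothelial, 5 of 10 mural, 9 of 9 meningeal and 4 of 9 choroid plexus genes were fitted higher, beside 50.7% of all genes, and 0 were below 0.05, beside 2.38%. None of these genes passed in edgeR. Cldn5, a tight junction gene of brain endothelium, was called by DESeq2 and limma voom in the interaction, and by limma voom for melanoma plus ICI against melanoma. The part of vessel or membrane tissue in the globin differences was not tested.

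**Figure D4:**
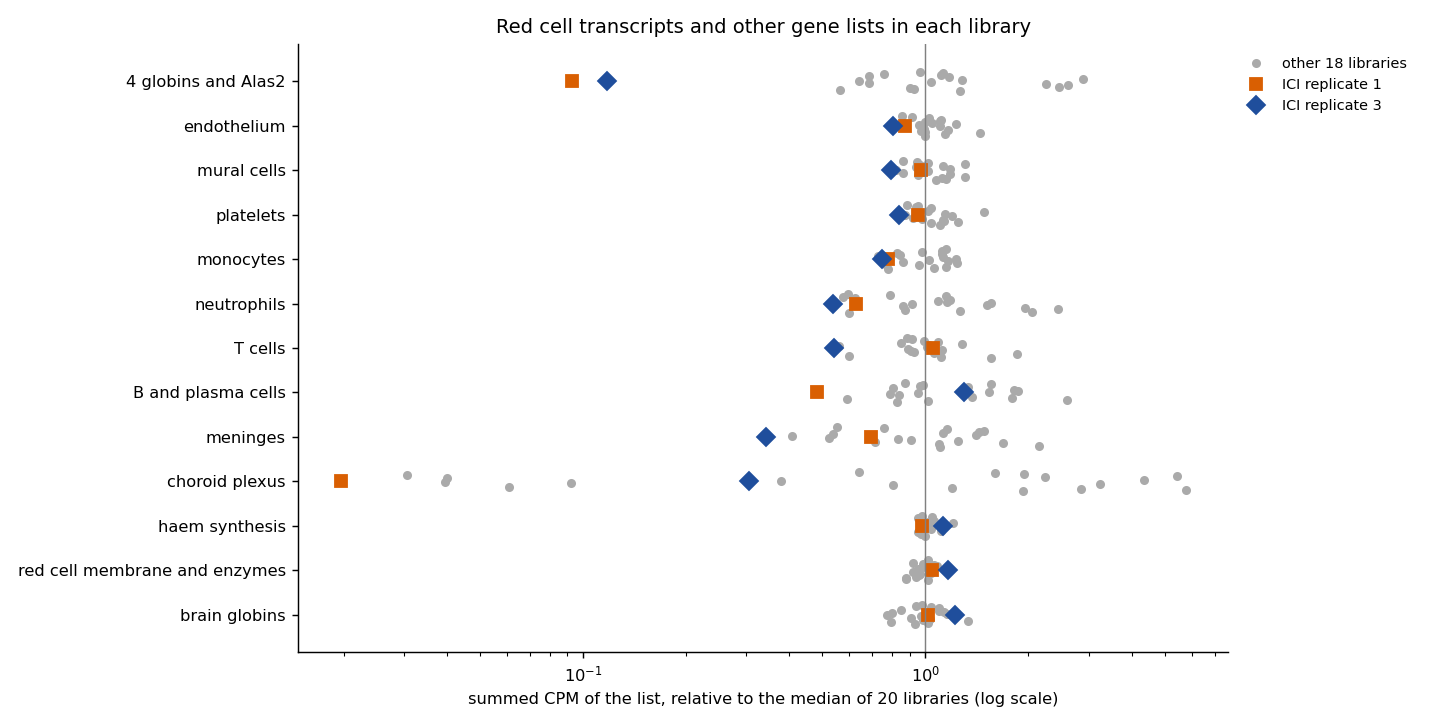
Summed CPM of each gene list in each library, divided by the median of the 20 libraries (horizontal axis, log scale), with ICI replicate 1 as orange squares, ICI replicate 3 as blue diamonds and the other 18 libraries as grey points. The 2 libraries, picked for their low globins, are separate from the others for the 4 globins and Alas2. They lie among the others or at their edge for the other lists.

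Hbb-bs was then set against 17 scores and library measures, each score being the mean log2 CPM of the tested genes of a list. After adjustment over the 17, none passed in permutation tests of r or of rho over all 20 libraries. The largest r was 0.53 with haem clearance genes (rho 0.35, permutation p = 0.0148 for r and 0.128 for rho, adjusted p = 0.139 and 0.452), and it was 0.53 with monocyte genes (rho 0.34, permutation p = 0.0163 and 0.140, adjusted p = 0.139 and 0.452). Without the 2 low ICI libraries the value for monocyte genes was -0.02. Without control replicate 4 it was 0.67 and passed (permutation adjusted p = 0.0289), and without control replicate 4 and melanoma plus ICI replicate 1 it was 0.70 (permutation adjusted p = 0.0219). For haem clearance genes r was 0.35 without ICI replicate 1 and 0.36 without both low ICI libraries. With endothelial genes r was 0.42 (rho 0.38, permutation p = 0.0687 and 0.102, adjusted p = 0.193 and 0.452). It was 0.26 without ICI replicate 3 and 0.07 without both low ICI libraries. With the mitochondrial share r was 0.48 (rho 0.38, permutation p = 0.0461 and 0.101, adjusted p = 0.193 and 0.452), and it was 0.30 without control replicate 4 and melanoma plus ICI replicate 1.

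The genes whose log2 CPM followed Hbb-bs most closely were the other 4 members, ranked 1 to 4 of 15480 genes. Outside them the highest r over 20 libraries were 0.76 for Haus3, 0.73 for Lrrc8a and Apod, 0.72 for Clec2d, Nedd1, Anxa1 and Nfe2l3, 0.70 for Dcaf12 and Hspb1 and 0.69 for Mlc1. The lowest r were -0.83 for Zfp46, -0.77 for Fpgs and -0.75 for Chpf2. Without ICI replicates 1 and 3, r was 0.25 for Apod and 0.49 for Haus3, and 0.79 for Dcaf12. Haus3 spanned 2.08-fold between its lowest and highest of the 20 libraries, and Apod 2.51-fold. Hba-a1 spanned 74.4-fold, from a lowest value of 5 counts, and 5.67-fold without ICI replicates 1 and 3. These values describe likeness over libraries that differ in tissue content, with no test. The choroid plexus sum, for instance, ran from 22.4 to 6621 CPM.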

How the data were processed

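Bulk RNA of 20 hippocampi was measured, and the authors deposited raw counts per gene, in the column layout of featureCounts per the file headers. STAR 2.5.2b and DESeq2 1.16.1 are named, without a role, in the submitters' processing notes. The counting program, strandedness, treatment of reads that fit several places, genome build and annotation are not given in the sources used here. Of 49671 gene coordinates, 45214 equal those of GENCODE M21 (GRCm38), which gave the symbols, and genes without one held 0.0415% of counts. Promoters came from RefSeq.

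Counts were tested with edgeR 4.0.16 in R 4.3.3: filterByExpr (minimum count 10, minimum total 15), TMM scaling (factors 0.955 to 1.04), a robust quasi-likelihood fit of all 20 libraries with 1 mean per group, and Benjamini-Hochberg adjustment over 18427 genes at a threshold of 0.05. The design has 16 residual degrees of freedom and a median of 3.57 prior ones. CPM is counts per 1000000 of the TMM-scaled size, and log2 CPM used a prior count of 2. Correlations used 100000 permutations, two-sided. Groups and replicate numbers come from the sample titles, each library from a separate mouse. In all 40 pairs of libraries within a group, counts differed by more than sampling noise. The fitting was tested on simulated counts for ICI against control, with a spread that followed the trend over all genes. The members spread more widely than most tested genes, so the power for them was not tested.

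The 5 genes and the 15 other lists were chosen with earlier results of these data known. The text names the members, the tested genes of the erythroid and other globin lists where a value is given, the 10 genes with the highest and the 3 with the lowest r with Hbb-bs, and some listed genes picked after their values were seen, among them Lyz2, Hmox1, Slc40a1 and Apex2. The alternatives were DESeq2 1.42.0, limma 3.58.1 voom with quality weights, other scaling and filters, only the groups compared, paralogs summed, the replicate number as a block, and each library left out. Leaving out ICI replicates 1 and 3 together, or control replicate 4 and melanoma plus ICI replicate 1, was added after the data were seen, as were these settings, DESeq2 and voom for the gene lists.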

Additional observations from a re-analysis of the deposited data

Results flagged for a closer look

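In 28 groups of 5 values, the gap between the most extreme library and its neighbour was divided by the range of the group and compared with Dixon's critical value of 0.71. For normally distributed values chance passes it in about 1 of 20 groups. The values here are CPM not on a log scale, drawn out towards high values, so that rate may not hold. The globins are also not independent of each other. Control replicate 4 stood above the other controls in Hba-a2 (0.821), Hbb-bt (0.811), Hbb-bs (0.741) and the summed globin CPM (0.748), and Hba-a1 came just short of the limit. Melanoma plus ICI replicate 1 stood above its group in Hba-a2 (0.748) and Hbb-bt (0.719). These were also the libraries with the highest mitochondrial shares, 5.10% and 4.28%. Their summed globins stood at 45.0 and 38.0 CPM. Melanoma replicates 4 and 5 had 34.7 and 39.98 CPM and mitochondrial shares of 3.38% and 3.15%. The part of the mitochondrial share in the globin values was not tested. ICI replicates 1 and 3 did not pass the limit, since each is the nearest neighbour of the other.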

How the results depend on the processing

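In 865 refits of the 30 values of the members, 822 kept their direction, 43 turned and 0 passed the threshold, with adjusted p from 0.360 to 1.0. Both comparisons with the ICI group (145 refits each) kept it throughout. Values that turned in melanoma against control were Hba-a2 0.13 and Hbb-bt 0.11 (limma voom), Hbb-bt 0.082 (paralogs summed), and Hba-a1 0.34, Hba-a2 0.48 and Hbb-bt 0.35 (without control replicate 4 and melanoma plus ICI replicate 1). The last setting also gave -0.27 for the interaction of Hba-a2. The cause was not tested.

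With each library left out, log2 fold changes in melanoma against control ran from -0.49 to 0.34 (Hba-a1), -0.43 to 0.48 (Hba-a2), -0.27 to 0.49 (Hbb-bs) and -0.52 to 0.35 (Hbb-bt). In melanoma plus ICI against control they ran from -0.92 to -0.07 (Hba-a1), -0.90 to 0.37 (Hba-a2), -0.53 to 0.27 (Hbb-bs) and -0.72 to 0.31 (Hbb-bt). In melanoma plus ICI against melanoma they ran from -0.80 to -0.03 (Hba-a1), -0.73 to 0.15 (Hba-a2), -0.64 to 0.16 (Hbb-bs), -0.59 to 0.36 (Hbb-bt) and -0.26 to 0.21 (Alas2).

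The same replicate number was no pairing. Over 30 same-numbered pairs the correlation of deviations ran from -0.35 to 0.53, and 10 were over 0.1. A library's best match had its own number in 13 of 60 cases. With the replicate number as a block, 0 members passed, and Hbb-bs turned against control, to -0.0088 in melanoma and 0.060 with ICI added. Against melanoma, melanoma plus ICI turned for Hba-a2 (0.11), Hbb-bs (0.069), Hbb-bt (0.12) and Alas2 (0.059).

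Over all genes, where edgeR called 0 in each comparison, DESeq2 called 1 in ICI against control, 8 in melanoma against control, 9 between the ICI groups with and without tumour and 47 for the interaction. Voom called 1 between melanoma and control, 25 for ICI given to tumour-bearing mice and 19 for the interaction. Fitting only the 2 groups called 3 in melanoma against control, and leaving out control replicate 4 and melanoma plus ICI replicate 1 called 1 for the interaction. With each library left out the calls ran from 0 to 3 between melanoma and control, 0 to 12 for ICI given to tumour-bearing mice and 0 to 11 for the interaction.

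All 260 alternatives for the pairs of members kept their call, with r from 0.702 to 0.987. Of 442 for Hbb-bs with scores and measures, 19 turned and 2 newly passed, both for monocytes (0.67 without control replicate 4, 0.70 without it and melanoma plus ICI replicate 1). The r that turned were, without ICI replicates 1 and 3, -0.017 (monocytes, whose 2 farthest libraries these are), -0.0058 (T cells), -0.093 (mural cells), -0.29 (choroid plexus), -0.028 (meninges), -0.14 (total counts) and -0.32 (TMM factor). Without the 2 libraries farthest from the median of the score or measure itself, which need not be the same, they were -0.14 (T cells), -0.099 (choroid plexus) and -0.15 (total counts), with group means subtracted -0.011 (red cell membrane) and -0.054 (total counts), and without control replicate 4 and melanoma plus ICI replicate 1 -0.41 (haem synthesis). With each library left out, r ran from -0.034 to 0.23 (brain globins), -0.15 to 0.42 (haem synthesis), -0.12 to 0.36 (T cells), -0.11 to 0.26 (choroid plexus) and -0.14 to 0.18 (total counts).

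Counts of 2 to 17 per globin limit the values of the low ICI libraries, and the spread between mice limits the comparisons.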
